A study of Equus caballus with 3 samples.

Results

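The genes described here are the 37 genes that the deposited matrices of equine mesenchymal stromal cells (MSCs) place on the mitochondrial chromosome, out of 29927 gene rows in all. That chromosome entry alone, and no measured value, decided which genes belong, although the set was taken up with earlier results of these data known. Of the 37, 13 carry a symbol, and these are the protein-coding genes of respiratory complex I (7 genes), complex III (1 gene), complex IV (3 genes) and complex V (2 genes). The other 24 carry only an Ensembl identifier that the files do not pair with a name. The RefSeq table in hand lists 22 tRNA and 2 rRNA genes on this chromosome beside the 13 protein-coding genes, but it matched 0 of the 24 identifiers, so which of them is an rRNA or a tRNA is not stated here. The files place 28 of the 37 on the + strand and 9 on the - strand, the latter being *ND6* and 8 rows without a symbol.

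The cells were cultured MSCs grown from fat (adipose tissue, AT), from marrow (bone marrow, BM) and from blood (peripheral blood, PB) taken from 1 healthy Warmblood mare of 10 years, captured at passage 2 with no treatment. Each source was profiled as 1 droplet library in which each molecule, labelled by the barcode of its droplet and by its own molecular identifier (UMI), is read at the 3′ end. With 1 library per source, a difference between sources cannot be told apart from a difference between libraries, no test was run, and all 95% intervals (exact Poisson, exact Clopper-Pearson, or the exact conditional interval of a ratio of 2 counts) cover counting error only. The titles give the tissue of each sample, although the source name deposited with all 3 names blood mononuclear cells.

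Mitochondria keep a small circular genome that encodes core subunits of the respiratory chain and of ATP synthase, together with the rRNAs and tRNAs needed to translate them inside the organelle. Both strands are transcribed as long precursors that are cut into single RNAs. Most of the mature mRNAs receive short poly(A) tails, which lets 3′ capture by oligo(dT) recover them. The share of such transcripts in a droplet is widely used to remove damaged cells, because cytoplasmic RNA leaks from a broken cell while RNA inside mitochondria is retained.

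Cells were taken to be barcodes between 2500 and 15000 UMIs whose share on the 37 genes did not exceed 3%, which gave 5403 AT-, 5580 BM- and 5318 PB-derived MSCs with 39980656, 40239295 and 41622445 UMIs. The median kept cell had between 6874 and 7750 UMIs. All 7 stromal markers examined, *COL1A1*, *COL1A2*, *COL3A1*, *THY1*, *CD44*, *ITGB1* and *ENG*, stood above 10 CPM (counts per 1000000 UMIs) in every source. None of the haematopoietic, erythroid, endothelial or muscle markers found in the matrices reached that level, and the summed level of each of these lists was 3.93 CPM or less. Many barcodes occur in more than 1 library: 5788 were held by both the AT and the PB library, among them 5279 that lay below the UMI limit in AT and were kept in PB. Every kept PB barcode was held by another library, so leaving out all shared barcodes gave no value for PB. Only 76 AT, 77 BM and 72 PB cells were kept under a barcode that was also kept in another source. Leaving out only these moved none of the main values below beyond counting error.

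Transcripts of the mitochondrial genome made up 1.46% (95% interval 1.46 to 1.47%) of the UMIs of AT-derived MSCs, 1.97% (1.96 to 1.97%) of those of BM-derived MSCs and 1.56% (1.55 to 1.56%) of those of PB-derived MSCs. BM-derived MSCs thus had the highest share, 1.26-fold that of PB (log2 ratio 0.34), and AT the lowest, at 0.743-fold the share of BM (log2 ratio -0.43). Scaling by TMM factors, which centres the bulk of genes, adds 0.28 to each log2 ratio of AT over BM, 0.04 to AT over PB and -0.23 to BM over PB, and left -0.15, -0.04 and 0.10 for the 3 pairs. The distance between AT and PB was small also without it, with a log2 ratio of -0.09 (-0.09 to -0.08). Without the 3% limit the shares were 1.47% in AT, 2.00% in BM and 1.57% in PB, in the same order.

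Subunits of complex IV, cytochrome c oxidase, which passes electrons to oxygen, carried most of these UMIs, with 55.0% of the mitochondrial UMIs of AT, 63.3% of BM and 63.2% of PB. Complex I, which takes electrons from NADH, held 14.9%, 14.2% and 11.2% in the same order of sources. Complex V, the ATP synthase, held 13.1%, 12.6% and 11.2%, below complex I in AT and BM and level with it in PB within counting error, and complex III, represented by *CYTB* alone, held 5.79%, 3.66% and 4.54%. The 24 rows without a symbol held 11.2% in AT, 6.26% in BM and 9.84% in PB. These are shares of UMIs counted at 3′ ends, so they rank captured molecules and not the amount of RNA per gene.

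*COX1*, the catalytic subunit of complex IV, was the gene with the most UMIs in every source, but its share differed. It held 30.2% (30.1 to 30.4%) of the mitochondrial UMIs in AT, 40.6% (40.4 to 40.7%) in BM and 40.3% (40.2 to 40.5%) in PB. Over all cell cycle phases BM and PB therefore lay next to each other, with a log2 ratio of 0.0076 (0.00011 to 0.015), and AT stood apart from both, at 0.746-fold the share of BM and 0.750-fold that of PB. In CPM of all UMIs the level of *COX1* was 4421 in AT, 7978 in BM and 6273 in PB, so BM and PB differed in level (log2 ratio 0.35) while their *COX1* shares over all phases were nearly equal. Within phases they were not, since BM was above PB in G1 cells (42.3% and 40.5%) and below it in S (37.7% and 40.04%) and G2M (37.5% and 40.2%), and 67.4% of BM but 55.8% of PB cells were called G1.

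*COX2*, which accepts electrons from cytochrome c, ranked second in every source and ran the other way, with 18.5% in AT, 15.8% in BM and 16.8% in PB. Its level varied little, at 2699, 3101 and 2609 CPM. *COX3*, the remaining core subunit, held 6.24% in AT, 6.95% in BM and 6.05% in PB. Within complex IV, the difference between AT and the other sources was thus carried by *COX1*.

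**Figure D1:**
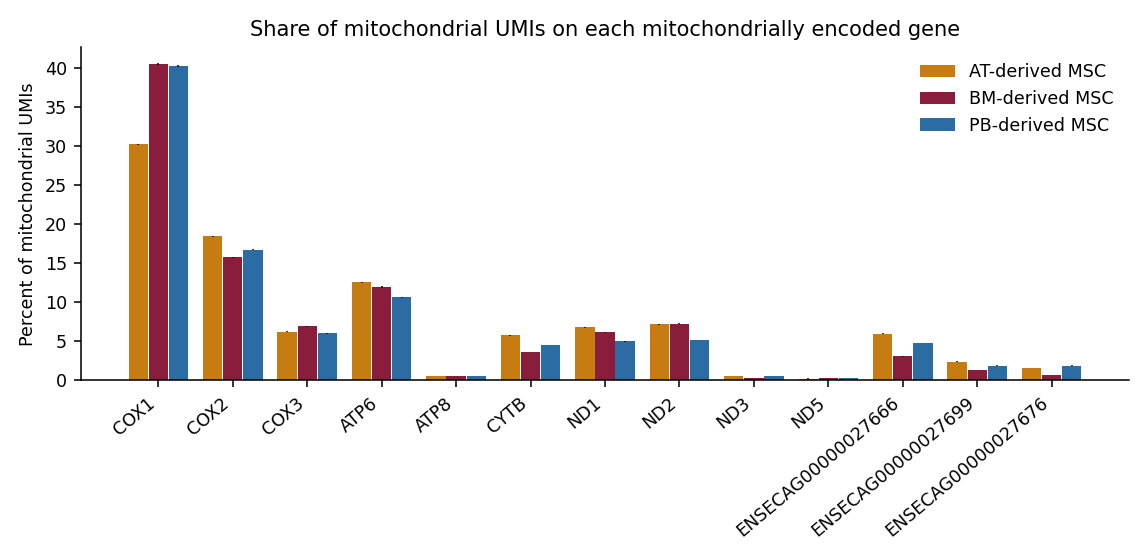
Percent of mitochondrial UMIs (y axis) on 13 mitochondrially encoded genes (x axis) in kept AT-, BM- and PB-derived MSCs, 1 library per source, with exact 95% Clopper-Pearson intervals as error bars. *COX1* holds 30.2% in AT against 40.6% in BM and 40.3% in PB, and *CYTB* and ENSECAG00000027666 are lowest in BM, at 3.66% and 3.11%.

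Among the complex V genes, *ATP6*, which forms part of the proton channel, ranked just behind, with a share of 12.6% in AT, 11.97% in BM and 10.7% in PB. *ATP8*, a short membrane subunit whose reading frame overlaps that of *ATP6*, held 0.565%, 0.606% and 0.551%. How the counting divided reads between these overlapping genes is not known, so their separate values are uncertain.

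*CYTB*, the cytochrome b of complex III, was highest in AT, with 5.79% (5.73 to 5.85%) of mitochondrial UMIs against 3.66% (3.62 to 3.70%) in BM and 4.54% (4.49 to 4.60%) in PB. In CPM it was 847 in AT, 720 in BM and 707 in PB, so that *CYTB* and *ND3* were the protein-coding genes tested whose level was higher in AT than in BM.

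Complex I had a broad range of shares among its 7 genes. *ND2* and *ND1*, both subunits of its membrane arm, held 7.19% and 6.79% in AT, 7.27% and 6.18% in BM, and 5.20% and 5.03% in PB. PB thus had the lowest share of both, and *ND2* was the protein-coding gene with the largest log2 ratio of level between BM and PB, 0.82 (0.80 to 0.85), from 1430 CPM in BM and 808 CPM in PB.

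*ND3*, a small subunit of the same arm, held 0.596% in AT, 0.308% in BM and 0.529% in PB. *ND5*, a large antiporter-like subunit, had the opposite order, with 0.245% in AT, 0.352% in BM and 0.344% in PB. Its level was 35.8 CPM in AT and 69.3 CPM in BM, and the log2 ratio of -0.93 was the lowest of all members tested between AT and BM.

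The remaining complex I genes had few UMIs counted. *ND4*, another antiporter-like subunit, held 0.065% to 0.079% of the mitochondrial UMIs of a source, and *ND6*, the one protein-coding gene on the - strand, held 0.038% to 0.046%. *ND4L*, a small membrane subunit whose reading frame overlaps that of *ND4*, was represented by 1 UMI in AT, 1 UMI in BM and 0 UMIs in PB. A count of 0 in PB, read as at most 3 UMIs, allows a share of up to 0.00046% of mitochondrial UMIs, and the exact 95% interval ends at 0.00057%. How the counting divided reads between *ND4* and *ND4L* is not known, so their low counts do not show low RNA levels. The 9 rows of the - strand together held 0.598% in AT, 0.462% in BM and 0.625% in PB, so more than 99% of the mitochondrial UMIs came from rows of the + strand.

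Of the 24 rows without a symbol, 7 held at least 0.1% of the mitochondrial UMIs of a source. ENSECAG00000027666 held 6.02% in AT, 3.11% in BM and 4.80% in PB, which put it among the 8 genes with the most UMIs in every source. ENSECAG00000027699 held 2.43%, 1.37% and 1.91%, and ENSECAG00000027676 held 1.57%, 0.738% and 1.92%. All 3 were lowest in BM. The other 4 held 0.50% or less. A further 17 stayed under 0.1% in every source and together held 0.229% in AT, 0.161% in BM and 0.237% in PB, and 6 of these were at 0 in every barcode of all 3 libraries, whatever its depth. Whether the counting could assign reads to these 6 rows is not known.

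The question of which members differ in level between sources was put by a fold rule, a difference of at least 2-fold in CPM + 1 for genes with at least 10 CPM in 1 of the sources compared, which 19 of the 37 could meet in each pair. None of the 19 passed it between AT and BM, where 10.8% of all 7072 genes did. *ND5* did so in cells called G1 alone, at -1.01, where the share of all genes was not counted. None passed it between AT and PB, where 9.82% of 6720 genes did. Between BM and PB, 1 of 19 passed, ENSECAG00000027676 with 145 CPM in BM and 298 CPM in PB (log2 ratio -1.03), beside 7.95% of 7066 genes. Its bounds from the separate 95% Poisson limits of the 2 counts were -1.09 to -0.97. These bounds span the 2-fold rule, so this call lies at its edge.

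The median log2 ratio over the members was -0.29 between AT and BM, 0.05 between AT and PB and 0.30 between BM and PB. Over all genes tested the medians were -0.24, -0.03 and 0.20. After scaling by TMM factors the member medians were -0.014, 0.09 and 0.08, and the direction turned for 1 member between AT and BM (*COX2*) and 1 between BM and PB (*CYTB*). The members spread around their median, from -0.93 for *ND5* to 0.65 for ENSECAG00000027676 between AT and BM, and from -1.03 for that row to 0.82 for *ND2* between BM and PB. Between AT and PB the range was -0.57, for *ND5*, to 0.67, for a row without a symbol at 20.5 CPM in AT and 12.5 CPM in PB.

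**Figure D2:**
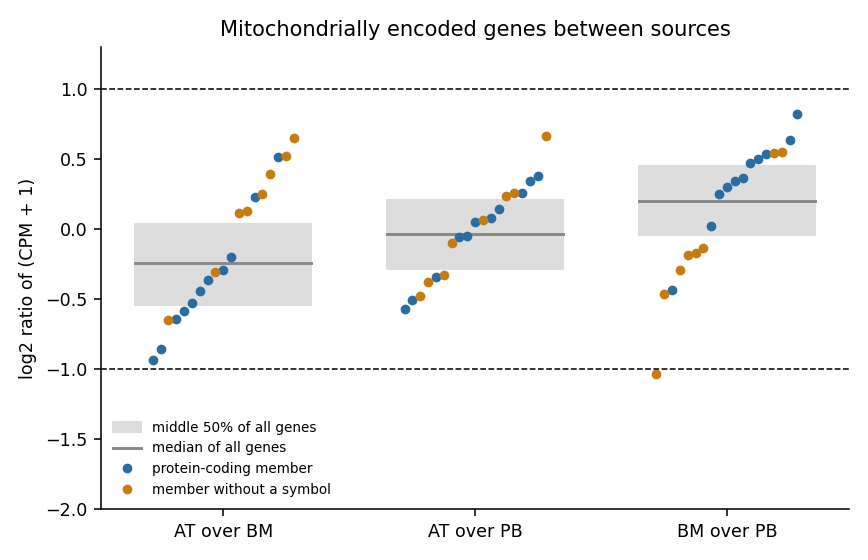
log2 ratio of CPM + 1 (y axis) of the 19 members tested in each pair of sources (x axis), blue for protein-coding genes and orange for rows without a symbol, with the median and middle 50% of all genes tested in grey and the 2-fold rule as dashed lines. 1 point, ENSECAG00000027676 between BM and PB at -1.03, lies past a dashed line.

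The nuclear genome encodes most subunits of the same complexes. Summed over 60 nuclear subunits of complexes I, III, IV and V that were in the matrices, their level was 13877 CPM in AT, 16261 CPM in BM and 15417 CPM in PB. The 13 mitochondrial genes of these complexes summed to 12980, 18441 and 14022 CPM, which is 0.935, 1.13 and 0.909 times the nuclear sum. Of the nuclear symbols listed, 32 of 37 for complex I, 7 of 9 for complex III, 9 of 12 for complex IV and 12 of 29 for complex V, where the list holds current and older names of the same genes, were in the matrices. Subunits outside the matrices are not in the nuclear sum, so whether a ratio lies above or below 1 depends on the subunits summed. For complex IV the mitochondrial sum was 2.92, 3.65 and 2.84 times the nuclear sum, while for complexes I, III and V it was below 0.5 times in every source.

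Genes whose products copy, transcribe, cleave, polyadenylate or degrade mitochondrial nucleic acids, together with regulators of the nuclear transcription of mitochondrial genes such as *ESRRA*, were examined as a list of 38, of which 37 were in the matrices and 20 reached 10 CPM. *POLRMT*, the mitochondrial RNA polymerase, and *TFAM*, which packs mitochondrial DNA and acts in starting its transcription, stayed below 10 CPM in every source. Neither is among the 20. None of the 20 passed the 2-fold rule in any pair of sources, against 10.8%, 9.82% and 7.95% of all genes tested. Their log2 ratios ranged from -0.79 to 0.47 between AT and BM with a median of -0.21, from -0.66 to 0.46 between AT and PB with a median of -0.10, and from -0.38 to 0.80 between BM and PB with a median of 0.17. The medians over all genes tested in these pairs were -0.24, -0.03 and 0.20.

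From cell to cell, the mitochondrial percent varied widely within each source. The median cell had 1.42% in AT, 1.96% in BM and 1.55% in PB. Cells in the middle 90% lay between 0.947% and 2.14% in AT, between 1.33% and 2.67% in BM and between 0.951% and 2.23% in PB. The SD over cells was 0.366, 0.405 and 0.384 percentage points, where sampling of UMIs alone would give 0.150, 0.174 and 0.150. The cells of the 3 sources therefore overlapped widely, and the spread within each was wider than counting error.

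**Figure D3:**
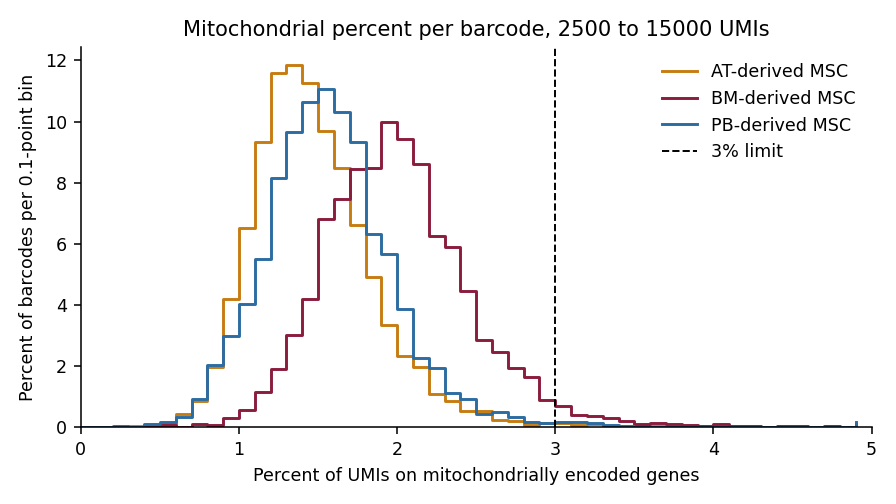
Percent of barcodes with 2500 to 15000 UMIs (y axis) per bin of the percent of UMIs on mitochondrially encoded genes (x axis), 1 line per source, with the 3% limit dashed and the last bin holding all higher values. The BM line lies to the right of AT and PB, with medians of kept cells of 1.96%, 1.42% and 1.55%.

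The 3% limit cut into the upper end of BM more than of the other sources. It removed 38 AT, 166 BM and 49 PB barcodes, and 66, 561 and 87 kept cells lay between 2.5% and 3%, while 22, 113 and 32 barcodes lay between 3% and 3.5%. The removed barcodes held 3.97%, 3.47% and 3.75% mitochondrial UMIs in sum. They were shallower than the kept cells, with medians of 5080, 5496 and 3997 UMIs. *COX1* took 30.6%, 39.8% and 40.6% of their mitochondrial UMIs, and the share of ENSECAG00000027676 was 1.09%, 0.739% and 1.13%, against 1.57%, 0.738% and 1.92% in kept cells. The shares of *ND1* and *ND2* in PB were 5.97% and 6.64%, above the 5.03% and 5.20% of kept PB cells.

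In single cells, mitochondrial UMIs followed nuclear UMIs closely, with Pearson correlations over cells of 0.82 in AT (5403 cells), 0.85 in BM (5580 cells) and 0.80 in PB (5318 cells), which share the capture depth of the cell. The mitochondrial percent had almost no linear relation to the total UMIs of a cell, at -0.015, 0.0045 and -0.040. Cells were binned by depth, with bins starting at 2500, 5000, 7500 and 10000 UMIs, and across them the percent first went down and then up. In AT it was 1.55%, 1.42%, 1.45% and 1.51% from the shallowest to the deepest bin. BM had 2.03%, 1.94%, 1.94% and 2.03% in these bins, and PB had 1.67%, 1.53%, 1.53% and 1.59%.

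The shallowest cells were thus highest or level with the deepest in each source. The log2 ratio of the deepest over the shallowest bin was -0.04 (-0.06 to -0.03) in AT, 0.0019 (-0.010 to 0.014) in BM and -0.08 (-0.09 to -0.06) in PB. Within G2M cells the ratio was 0.05 (0.019 to 0.08) in AT and 0.05 (0.018 to 0.08) in BM, but -0.05 (-0.08 to -0.020) in PB. Within S cells the intervals for counting error spanned 0 in each source. Cells spread more widely than counting error. The SD over AT G2M cells of the shallowest bin was 0.546 percentage points, against 0.212 from counting. Whether these signs hold beyond the spread of cells was not tested. Without the 3% limit, which removes shallow cells most, the shallowest bin rose to 1.59% in AT, 2.13% in BM and 1.76% in PB. No member passed the 2-fold rule between these bins, where 1.24% of all genes tested in AT, 5.84% in BM and 2.42% in PB did.

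Cell cycle phase was called from nuclear genes, and *TOP2A*, a topoisomerase of dividing cells that is itself on the list behind the calls, served only to describe them. Its level in cells called G1, S and G2M was 2.54, 16.8 and 141 CPM in AT, 2.41, 49.6 and 187 CPM in BM, and 2.15, 10.6 and 76.3 CPM in PB. Cells called G1 made up 57.1%, 67.4% and 55.8% of AT, BM and PB cells. With phases called after thinning cells to equal depth they made up 47.9%, 63.1% and 49.7%, so the calls depend on the cells and depth used. Free RNA can enter such calls, and its level was not measured.

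In AT-derived MSCs, cells called S or G2M had a higher mitochondrial percent than cells called G1, with 1.55% and 1.54% against 1.401%. The log2 ratio to G1 was 0.15 (0.14 to 0.16) for S and 0.13 (0.12 to 0.14) for G2M, and both were above 0 in each of the 4 depth bins. With phases called after thinning cells to equal depth, the ratio of G2M was 0.07. Without thinning it was largest in the deepest bin, at 0.20, and 0.06 in each of the 2 shallower bins.

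In BM-derived MSCs the values were 1.95% in G1, 2.04% in S and 1.96% in G2M. The log2 ratio of S over G1 was 0.07 (0.06 to 0.07) and was above 0 in each depth bin. That of G2M over G1 was 0.010 (0.0013 to 0.019) over all cells. By depth it was -0.04 and -0.09 in the 2 shallower bins and 0.021 and 0.05 in the 2 deeper ones. The SD over BM G2M cells of the shallowest bin was 0.502 percentage points, against 0.228 from counting. Whether the sign differs with depth beyond the spread of cells was not tested. G2M cells of BM were also deeper than G1 cells, with medians of 8025 and 6487 UMIs.

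PB-derived MSCs varied little with phase, at 1.54%, 1.56% and 1.58% in G1, S and G2M. Here the log2 ratio of S over G1 was -0.07 (-0.10 to -0.03) in the shallowest bin and 0.05 (0.04 to 0.07) in the deepest. The SD over PB S cells of the shallowest bin was 0.498 percentage points, against 0.211 from counting. Whether the sign differs with depth beyond this spread was not tested. The log2 ratio of G2M over G1 was 0.03 (0.03 to 0.04). It was 0.053 without the 3% limit, where phases were called anew and cells called G2M went from 1124 to 973. The part of these new calls in the change was not tested. With the limit, the deepest bin alone had an interval above 0, at 0.08 (0.07 to 0.10). With cells ordered by the share of nuclear UMIs on cycle genes, the highest and lowest of 4 equal groups had 1.58% and 1.402% in AT, 2.00% and 1.97% in BM, and 1.58% and 1.57% in PB. AT was again the source in which the mitochondrial percent moved most with cycling.

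**Figure D4:**
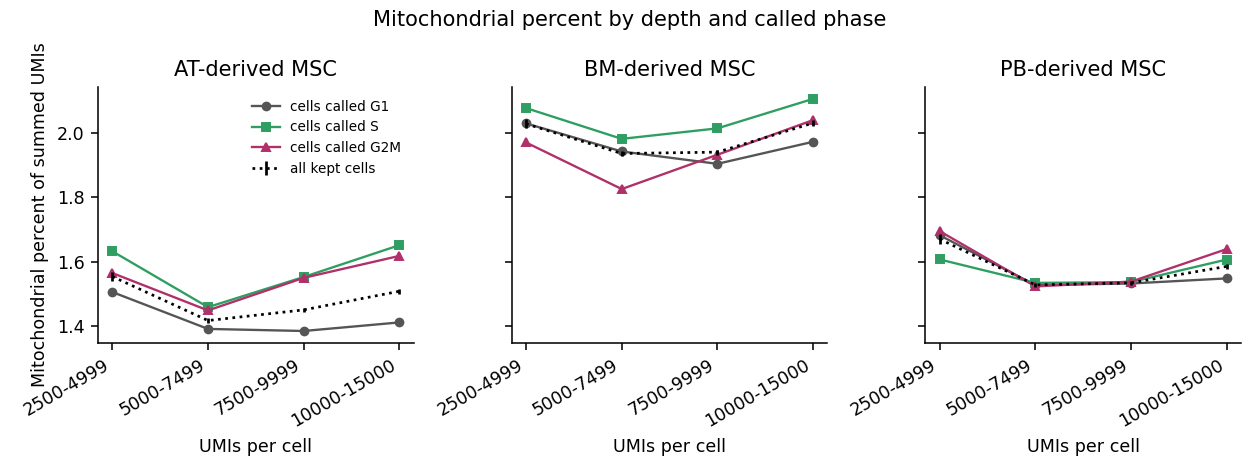
Mitochondrial percent of summed UMIs (y axis, not starting at 0) by UMIs per cell (x axis) in AT, BM and PB, for cells called G1, S and G2M and for all kept cells, the latter with 95% intervals for counting error. In AT the S and G2M lines lie above G1 in all 4 bins, and the line of all cells dips in the middle bins of each source.

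No member passed the 2-fold rule between phases in any source. Between S and G1 the rule was passed by 1.53% of all genes tested in AT, 7.51% in BM and 1.24% in PB, and between G2M and G1 by 4.23%, 11.8% and 3.55%. The largest log2 ratio of a member between G2M and G1 reached 0.40, 0.43 and 0.44 in AT, BM and PB cells.

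The makeup of the mitochondrial UMIs differed most with phase in BM for *COX1*, *ND1* and *ND2*. *COX1* held 42.3% (42.2 to 42.5%) of them in BM cells called G1, 37.7% (37.5 to 37.9%) in S and 37.5% (37.3 to 37.8%) in G2M. *ND1* had 5.61%, 7.14% and 7.14%, and *ND2* had 6.77%, 8.09% and 8.10%. A lower *COX1* share with higher *ND1* and *ND2* shares in S and G2M was found in each of the 4 depth bins. The *COX1* gap was wider in deep cells. It was 43.8% against 41.4% and 39.4% in the shallowest bin, and 42.0% against 35.9% and 36.3% in the deepest.

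In AT the *COX1* share was 30.4% in G1, 29.8% in S and 30.4% in G2M, and that of *ND2* was 7.18%, 7.24% and 7.17%. PB lay between, with a flat *COX1* share of 40.5%, 40.04% and 40.2% but an *ND2* share of 4.83%, 5.56% and 5.76%. This spread of *ND2* went with depth. In the shallowest bin the share was 4.91% in G1, 5.011% in S and 5.29% in G2M, with overlapping intervals, and in the deepest bin it was 4.91%, 6.45% and 6.67%. ENSECAG00000027666 went down with cycling in BM, from 3.38% in G1 to 2.67% in S and 2.63% in G2M, and in PB, from 5.17% to 4.47% and 4.20%. In AT it held 6.001% in G1 and 6.11% in G2M.

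**Figure D5:**
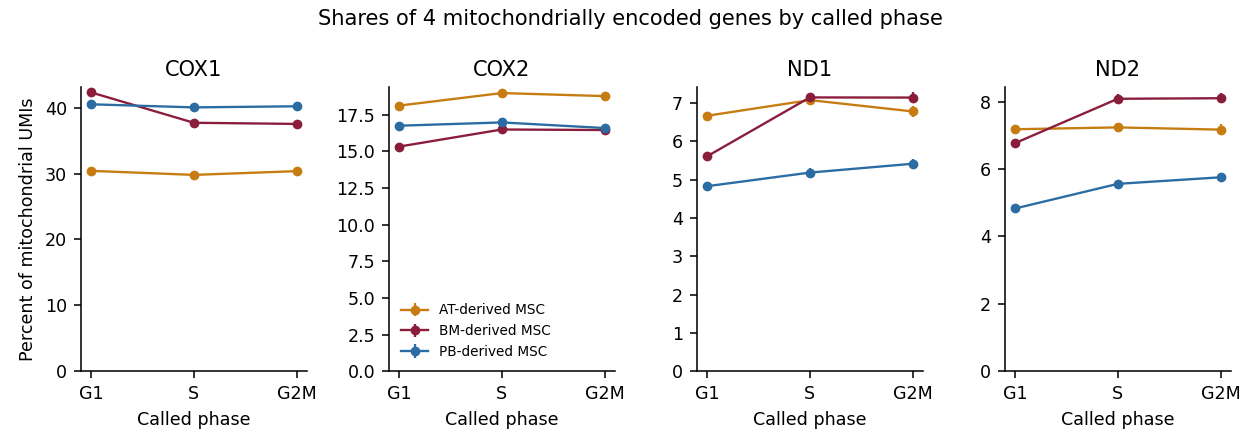
Percent of mitochondrial UMIs (y axis, from 0, with a separate scale per panel) on *COX1*, *COX2*, *ND1* and *ND2* in kept cells called G1, S and G2M (x axis), 1 line per source with 95% intervals for counting error. In BM *COX1* goes from 42.3% in G1 to 37.5% in G2M while *ND1* and *ND2* go up, whereas AT is nearly flat.

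The spread of a gene's share among mitochondrial UMIs from cell to cell was compared with counting error. Over cells with at least 50 mitochondrial UMIs, the SD of the *COX1* share was 5.82 percentage points in AT, 7.03 in BM and 6.73 in PB, where counting alone would give 4.60, 4.41 and 4.68. For *COX3* the SDs of 2.46, 2.43 and 2.39 were close to the 2.43, 2.28 and 2.28 of counting. *COX1* was thus more variable between cells than its counts require, and *COX3* hardly so. ENSECAG00000027666 also exceeded counting, with SDs of 3.32, 2.04 and 2.91 against 2.39, 1.56 and 2.04 in AT, BM and PB.

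To describe which nuclear genes went with the mitochondrial percent, cells of each depth bin were ordered by that percent and split into 3 groups of equal size, and the high group was set against the low group, so that both had like depth. Of 2361 nuclear genes detected in 25% or more of the cells of each source, 650 were higher and 418 lower in the high group in all 3 sources. Levels in the high and low groups, and their ratios, are in CPM of nuclear UMIs and not of all UMIs. Few differences were large, and the median log2 ratio was 0.07 in AT, 0.0061 in BM and -0.03 in PB.

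Genes were ranked by their smallest ratio over the 3 sources, and 4 of the 5 highest had no symbol. ENSECAG00000028173, on chromosome 14, had log2 ratios of 0.63 in AT, 0.75 in BM and 0.79 in PB. ENSECAG00000035318, on chromosome 27, had 0.60, 0.66 and 0.64 and is abundant, with 1480 CPM in AT, 1983 CPM in BM and 1413 CPM in PB. Per cell, its share of nuclear UMIs correlated with the mitochondrial share at 0.53, 0.56 and 0.51 over the same cells. Both shares come from the same cells. Whether its UMIs come from a nuclear gene or from a copy of mitochondrial sequence was not tested. *CKAP4*, a membrane protein of the endoplasmic reticulum, was the gene with a symbol among the 5 highest, with log2 ratios of 0.79, 0.45 and 0.73.

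The 5 lowest were *PCOLCE*, which enhances procollagen processing, *SERPINF1*, a secreted serpin, *EQMHCB2*, an equine histocompatibility gene, *TPM2*, a tropomyosin, and *RCN1*, a calcium-binding protein of the endoplasmic reticulum. *PCOLCE* had log2 ratios of -0.71 in AT, -0.76 in BM and -1.29 in PB, and *SERPINF1* had -0.70, -0.75 and -1.32. Both were thus furthest down in PB, while *TPM2* was even across sources at -0.54, -0.53 and -0.48.

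Past 2-fold, AT had 3 genes higher in the high group (0.127% of those measured) and 0 lower (0%). All 3 are named although they were picked after their values were seen. *NME1*, a nucleoside diphosphate kinase, had 393 CPM against 128 CPM (log2 ratio 1.60), *PCNA*, the sliding clamp of DNA replication, had 112 against 50.8 CPM (1.13), and *CD320*, the receptor for transcobalamin, had 259 against 127 CPM (1.02). In BM and PB the ratios of these 3 genes lay between 0.06 and 0.24. Cells called S made up 33.0% of the high and 19.7% of the low group in AT, and cells called G2M 21.3% and 15.6%. In BM these were 22.5% and 15.8% for S and 12.4% and 16.0% for G2M. In PB they were 22.8% and 23.3% for S and 21.2% and 20.4% for G2M. The part of phase in these results, and in those for nuclear subunits below, was not tested.

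BM had 0 genes past 2-fold in either direction (0%). PB had 7 genes lower (0.296%), among them *SERPINF1* with 191 against 479 CPM and *PCOLCE* with 144 against 354 CPM. Nuclear subunits of complexes I, III, IV and V went with the mitochondrial percent in AT, where 48 of 54 measured were higher in the high group with a median log2 ratio of 0.23. Over all 2361 genes in AT, 1534 (65.0%) were higher, with a median of 0.07. In BM 28 of 54 subunits were higher with a median of 0.020, beside 1216 of all genes (51.5%) with a median of 0.0061. In PB 21 of 54 were higher with a median of -0.06, beside 1083 of all genes (45.9%) with a median of -0.03.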

How the data were processed

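The authors used CellRanger and the EquCab3.0 genome to align the reads of the 3′ libraries, and then ESAT to count UMIs, which adds reads just downstream of a gene, leaves out exons that overlap on opposite strands and counts duplicated features in a second run. The counts they deposited are whole numbers, not normalized, with 1 library per source. Gene symbols and chromosomes are those of the deposited matrices. The RefSeq table used to look up names belongs to another assembly, of a thoroughbred, so no coordinates were taken from it and no sequence is printed.

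Barcodes between 2500 and 15000 UMIs were analysed, with and without a limit of 3% on the mitochondrial share. The multiplet caller of the methods was not run, and the upper bound alone limits doublets. Sums over kept cells were compared as CPM (pseudocount 1 CPM). For the groups by mitochondrial percent, CPM were of nuclear UMIs. The 3 libraries had 48688055, 45327399 and 47380686 UMIs in all barcodes, and 3 UMIs in the kept cells correspond to 0.075, 0.0746 and 0.0721 CPM. Phases were called by CellCycleScoring of Seurat 5.3.0 in R 4.3.3, with 40 of 43 S and 52 of 54 G2M genes found and mitochondrial genes left out. They were called separately for kept cells, for cells without the 3% limit and for thinned cells, and some cells changed phase between these sets. Intervals were computed with SciPy 1.17.1, and the ratios were checked on simulated Poisson counts. TMM factors came from edgeR 4.0.16. Alternatives were the limits on cells, thinning to 2500 UMIs, G1 cells only, pseudocount, filter, scaling, and other ways to call phase or depth.

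The members, gene lists and tests were chosen with earlier results of these data known. Named members are the 13 protein-coding genes and rows with at least 0.1% of mitochondrial UMIs, and named nuclear genes are the 5 highest and 5 lowest by the smallest same-direction ratio over the 3 sources, except where stated. Genes of PB past 2-fold in the high group by mitochondrial percent are not reported here.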

Additional observations from a re-analysis of the deposited data

Results flagged for a closer look

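Barcodes below 2500 UMIs, which enter no comparison above, included some with a very high mitochondrial share. At least 20% of UMIs were mitochondrial in 70 AT, 55 BM and 36 PB barcodes, against at most 3% in kept cells. Their UMIs were 43.7%, 58.2% and 50.3% mitochondrial in sum, and the highest barcode reached 83.9%. They held a median of 316, 298 and 296 UMIs. In AT and BM *COX1* held 28.5% and 36.0% of their mitochondrial UMIs, against 30.2% and 40.6% in kept cells.

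In the 36 PB barcodes, ENSECAG00000027699 held 15.5% of the mitochondrial UMIs, against 1.91% in kept PB cells. A single barcode gave 320 of its 1069 UMIs, and the share was 11.5% without it. Only 7 of the 36 barcodes held 10 or more of these UMIs, so the share rests on a few barcodes.

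The AT barcodes below 2500 UMIs with under 20% mitochondrial UMIs that were kept in PB, 5279 in number, had 39.4% of their mitochondrial UMIs on *COX1* and 5.35% on *ND2*. Kept PB cells had 40.3% and 5.20%, and kept AT cells 30.2% and 7.19%. The 370 AT barcodes below 2500 UMIs and under 20% that no other library held had 30.5% and 7.42%. The source of the UMIs under shared barcodes was not tested.

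The log2 ratio of the mitochondrial share between the deepest and the shallowest cells was 0.0019 in BM, above 0, and below 0 in AT and PB, at -0.04 and -0.08. In BM it was -0.03 without the 3% limit and -0.04 in cells called G1, below 0 as in the other sources. In cells called G2M it was 0.05 in BM and 0.05 in AT, with intervals for counting error above 0, and -0.05 in PB. The BM interval of the first value spans 0. The difference between sources was not tested, nor was whether the values in G2M cells exceed the spread of cells.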

How the results depend on the processing

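No paired analysis was possible because each source has 1 library. Replicates could not be left out for the same reason. BM remained highest and AT lowest in mitochondrial percent under every alternative run for all 3 sources. Within cells called S, AT was not below PB beyond counting error (1.55% and 1.56%), and it was above PB in the deepest S bin (1.65% and 1.61%). The percent of AT, BM and PB moved beyond counting error to 1.47%, 2.00% and 1.57% without the mitochondrial limit, to 1.504%, 2.03% and 1.59% with all barcodes of at least 500 UMIs, to 1.47%, 1.98% and 1.57% without the upper UMI limit, to 1.401%, 1.95% and 1.54% in cells called G1, and to 1.42%, 1.96% and 1.55% as the median per cell. For PB it was 1.56% both thinned to 2500 UMIs and as the mean per cell.

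The number of members past 2-fold between AT and BM, 0 as reported, was 1 in cells called G1 (*ND5*, log2 ratio -1.01) and 5 relative to mitochondrial UMIs. Between AT and PB, also 0 as reported, it was 2 relative to mitochondrial UMIs. Between BM and PB, 1 as reported, it was 0 with all barcodes of at least 500 UMIs, 0 with a pseudocount of 25 CPM and 3 relative to mitochondrial UMIs. That scaling tested 28 or 29 members in place of 19, since 10 CPM of mitochondrial UMIs alone is a lower bar. ENSECAG00000027676 was among those past it between AT and BM (log2 ratio 1.09) and between BM and PB (-1.38). Some others rested on few UMIs. ENSECAG00000027668 had 8 against 1 between AT and BM and 8 against 4 between AT and PB. ENSECAG00000027690 had 6 against 3 between AT and BM and 3 against 8 between BM and PB. The share of all genes past the rule was not counted under these alternatives.

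The log2 ratio of G2M over G1 in AT was 0.073 with phases called after thinning, 0.12 as the mean over depth bins, 0.15 for S over G1 and 0.17 between the highest and lowest of 4 equal groups by cycle genes. In BM it reversed to -0.016 as the mean over depth bins, and was 0.026 after thinning, 0.066 for S and 0.022 between those groups. In PB it was 0.053 without the mitochondrial limit and with phases called anew, 0.024 over depth bins, 0.017 for S and 0.011 between those groups. The log2 ratio of the deepest over the shallowest bin was -0.067 in AT, -0.035 in BM and -0.13 in PB without the mitochondrial limit, and -0.093, -0.041 and -0.12 in cells called G1. In cells called G2M it was 0.048 in AT, 0.050 in BM and -0.048 in PB, and in cells called S it was 0.017, 0.020 and close to 0. The cause was not tested.

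The share of *COX1* moved beyond counting error in AT to 31.2% with all barcodes of at least 500 UMIs, 30.4% thinned and 30.4% in G1, in BM to 40.3% with all barcodes, 40.3% without the upper limit, 41.0% thinned and 42.3% in G1, and in PB to 40.6% thinned and 40.5% in G1. Of the AT barcodes below 2500 UMIs, 5279 are barcodes kept in PB, with 39.4% of mitochondrial UMIs on *COX1*, and their part in the AT values was not tested. Of 320 values for the other named members, 256 stayed within counting error, and no share moved by more than 0.577 percentage points.

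Every kept PB barcode is also in another library, so leaving out shared barcodes left 5284 AT, 5491 BM and 0 PB cells and gave no value for PB. The narrower form, leaving out barcodes kept in another library, was chosen after seeing the data. Neither moved a value beyond counting error. Depth limits the members under 0.1% of mitochondrial UMIs, several of which rest on few UMIs.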
